A study of Mus musculus with 24 samples.

Results

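The subject is the nuclear share of the oxidative phosphorylation machinery: the genes in the cell nucleus that encode subunits of complexes I to V of the mitochondrial inner membrane, followed as mouse CD4+ T cells were stimulated. Members were taken by symbol from the count table, as protein-coding mouse genes that start with Nduf, Sdh (Sdha to Sdhd), Uqcr, Cox4 to Cox8 or Atp5, without the assembly factors of complexes I and II. The rule gave 86 members among 54446 gene identifiers, 38 in complex I, 4 in complex II, 8 in complex III, 18 in complex IV and 18 in complex V. Counts were found for 82 of them, and 79 passed the filter on low counts and were tested among 15325 genes.

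Electrons from NADH enter at complex I (NADH dehydrogenase) and those from succinate at complex II (succinate dehydrogenase). They pass through ubiquinone to complex III (cytochrome bc1), then through cytochrome c to complex IV (cytochrome c oxidase), which reduces oxygen. Complexes I, III and IV pump protons, and complex V (ATP synthase) uses the gradient to make ATP. A minority of the subunits is encoded in mitochondrial DNA, so the complexes are built from the products of both genomes. Resting T cells live largely on oxidative phosphorylation, and activation is known to enlarge the cells and their mitochondria while glycolysis rises.

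The libraries came from splenic CD4+ T cells of 6 mice. The 3 WT mice (1, 3 and 4) were C57BL6, and the 3 AIM2-/- mice (1, 2 and 4) carried the deficiency of Aim2, a cytosolic DNA sensor, in all their cells. RNA of each mouse was sequenced from unstimulated cells (0 h) and from cells stimulated for 3, 6 and 24 h. Stimulation was through CD3 (the T cell receptor complex) and CD28 (a costimulatory receptor). The 24 libraries formed 8 groups of 3. Per the general methods of the study the cells were enriched by removing other cells, not sorted, and mice were cohoused. Values by library are given in the order of mice 1, 3 and 4 for WT and 1, 2 and 4 for AIM2-/-, in CPM, the counts of a gene relative to the TMM-scaled total of its library.

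Totals lay between 19715161 and 21627018 counts per library. Aim2 itself stood at 21.49, 74.95 and 67.46 CPM in the WT libraries of 0 h and at 15.7, 20.1 and 19.0 CPM in AIM2-/-. At 24 h it stood at 5.57, 34.0 and 38.6 CPM in WT and at 6.55, 7.15 and 5.28 CPM in AIM2-/-. The libraries labelled WT mouse 1 therefore lay at or near the AIM2-/- level at all times, against their label. Counts of called members over all complexes, in WT stimulation and between genotypes, are also given without that mouse. Counts by complex and for the genes beside the members are given with it only, and levels of single members by library. B cell markers summed to 346.5 to 745.5 CPM in WT and 4342 to 6089 CPM in AIM2-/- at 0 h, nearly all of it Ighm, and to means of 385.5 and 1062 CPM at 24 h. The defining B cell genes Ms4a1 and Pax5 reached at most 2.59 and 2.08 CPM in any library and were at 0 in some. Myeloid markers had means of 51.4 and 233.5 CPM at 0 h. The 6 erythroid markers, mostly hemoglobin genes, summed to 7.70 to 71.8 CPM in WT at 0 h and to 336, 21.1 and 201 CPM in AIM2-/-, where mouse 2 stood apart from mice 1 and 4, as it did in the myeloid sum. The 4 NK cell markers summed to 58.02 to 80.3 CPM in WT and 74.9 to 128 CPM in AIM2-/-, and the 2 CD8 T cell markers to at most 15.6 CPM in any library. In a bulk sample, fewer cells of a type and less RNA per cell cannot be told apart. The 7 CD4 T cell markers summed to means of 4167 CPM in WT and 4352 CPM in AIM2-/- at 0 h.

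Taken as a sum, the members' transcripts rose from 0.636% of the TMM-scaled total in unstimulated WT cells to 1.45% after 24 h. At 0, 3, 6 and 24 h the WT sums were 6357 ± 282.7, 6806 ± 366.4, 8351 ± 507.3 and 14490 ± 463.2 CPM (mean ± SD, n = 3 mice). In AIM2-/- cells it was 6848 ± 471.3, 6993 ± 632.1, 8860 ± 812.0 and 14330 ± 655.1 CPM at the same times (mean ± SD, n = 3). Each of the 6 mice moved the same way. The 24 h sum was 2.33, 2.28 and 2.22 times the 0 h sum of the same mouse in WT and 2.08, 2.16 and 2.04 times in AIM2-/-. At 3 h the ratio was 1.17, 1.06 and 0.99 in WT and 1.00, 1.01 and 1.05 in AIM2-/-, so little of the rise had taken place by then. Scaled by library totals instead of TMM, the 24 h means were 2.26 and 2.13 times those of 0 h.

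**Figure D1:**
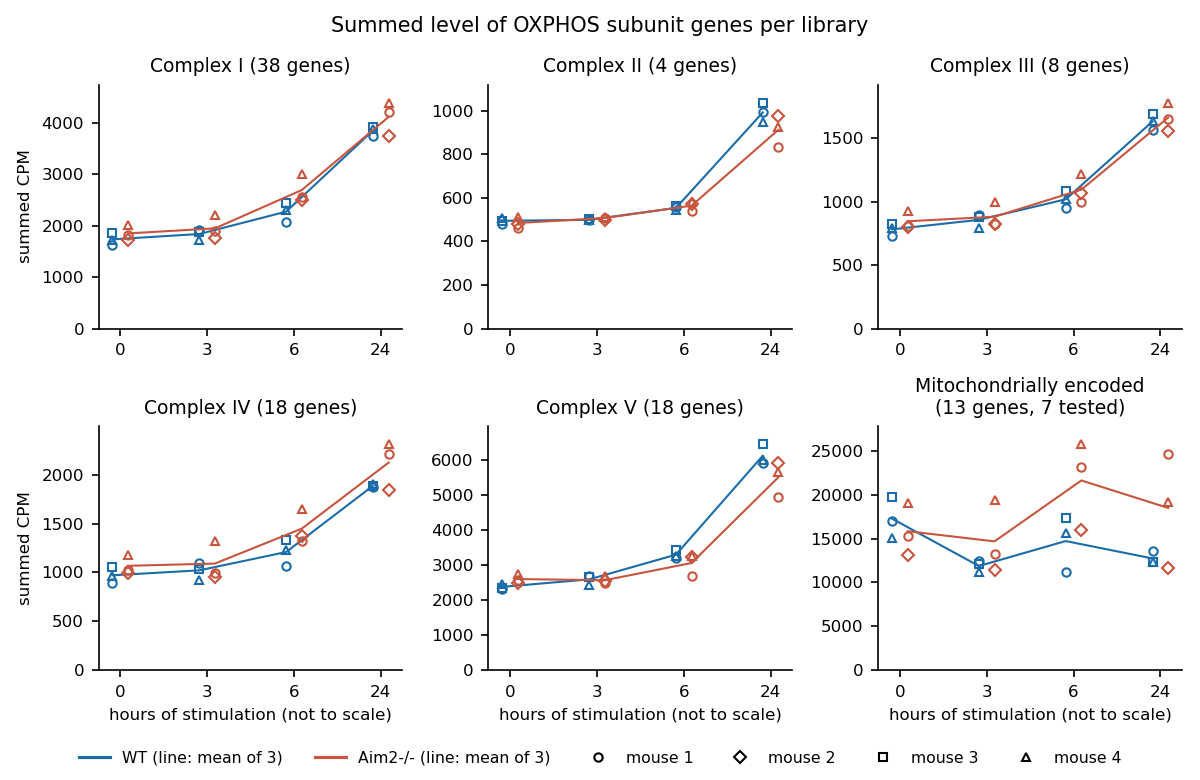
Summed CPM of the members of complexes I to V (y axis, linear from 0) at 0, 3, 6 and 24 h (x axis), each point 1 library and each line the mean of 3 mice, for WT and AIM2-/- cells. In each complex the 24 h libraries of both genotypes lie above those of the other times, and complex V reaches the highest sums, 6121 CPM in WT and 5508 CPM in AIM2-/- on average.

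By 24 h the summed level of each complex had risen in both genotypes. In WT the mean summed level of 24 h was 2.22 times that of 0 h for complex I, 2.01 for complex II, 2.09 for complex III, 1.95 for complex IV and 2.58 for complex V. Without WT mouse 1 these were 2.18, 1.98, 2.06, 1.87 and 2.59. The AIM2-/- ratios were 2.23, 1.88, 1.97, 1.99 and 2.12 in the same order. At 6 h the ratios of complexes I to V were 1.31, 1.12, 1.30, 1.25 and 1.39 in WT, and 1.46, 1.16, 1.30, 1.36 and 1.18 in AIM2-/-. Complex V thus had the largest 6 h ratio in WT and lay beside complex II in AIM2-/-. In such a sum the members with the most counts weigh most, in complex V Atp5b and Atp5a1. Gene by gene, the median 6 h log2 fold change of complex V was alike, at 0.59 in WT and 0.58 in AIM2-/-. That of complex II was 0.19 and 0.27. By mouse the 6 h ratio of complex V was 1.39, 1.47 and 1.31 in WT and 1.05, 1.30 and 1.18 in AIM2-/-. No test was made of these ratios.

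Gene by gene, a member is described as called where edgeR's quasi-likelihood test over all 15325 genes gave an adjusted p under 0.05 after Benjamini and Hochberg. At 24 h in WT, 70 of the 79 members were called higher and 2 lower, with a median log2 fold change of 1.27 (2.41-fold) against -0.01 over all genes. Of all genes tested, 36.6% were called higher and 34.8% lower in that comparison. In AIM2-/- cells 71 members were called higher and 2 lower at 24 h, with a median of 1.24, against 36.8% and 33.5% of all genes. The 70 members called higher in WT were called higher in AIM2-/- as well. Without WT mouse 1 the WT count at 24 h was again 70 higher and 2 lower, with a median of 1.24. In 71 members the 3 WT libraries of 24 h all lay above the 3 of 0 h, and in 70 members those of AIM2-/- did. Over all 15325 genes this held for 6019 and 5708 genes.

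The response built up slowly. At 3 h only 10 members were called higher and 3 lower in WT (all genes 16.2% and 16.4%), and 4 higher and 3 lower in AIM2-/- (all genes 16.1% and 14.6%). These shares of members lie near or under the background. With mouse as a block, 21 were called higher (26.6% of members, all genes 21.2%) and 5 lower (all genes 21.5%) in WT. In AIM2-/- that fit called 17 higher (21.5% of members, all genes 20.8%) and 4 lower (all genes 20.3%). The WT count without WT mouse 1 was 2 higher and 3 lower, and 12 higher and 4 lower with the block. The WT count was 2, both higher, without WT mouse 3, and 2 higher and 1 lower without WT mouse 4. At 6 h, 56 members were called higher and 4 lower in WT, with a median of 0.48 (all genes 26.4% and 24.8%). In AIM2-/- at 6 h, 60 were called higher and 2 lower, with a median of 0.58 (all genes 28.5% and 22.7%). Without WT mouse 1 the WT count at 6 h was 53 higher and 3 lower.

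Between successive times, 36 members were called higher and 2 lower from 3 to 6 h in WT (all genes 14.2% and 11.5%), and 57 higher and 1 lower in AIM2-/- (all genes 13.4% and 9.89%). The WT count of that step was 6 higher and 1 lower without WT mouse 3, the same without WT mouse 4, and 35 higher and 1 lower without WT mouse 1. From 6 to 24 h, 66 were called in WT, each of them higher (all genes 29.6% and 28.0%), and 63 without WT mouse 1, again each higher. In AIM2-/- 63 were called higher and 1 lower over that step (all genes 27.4% and 27.0%). Comparisons within a genotype share libraries, so they are given side by side only.

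**Figure D2:**
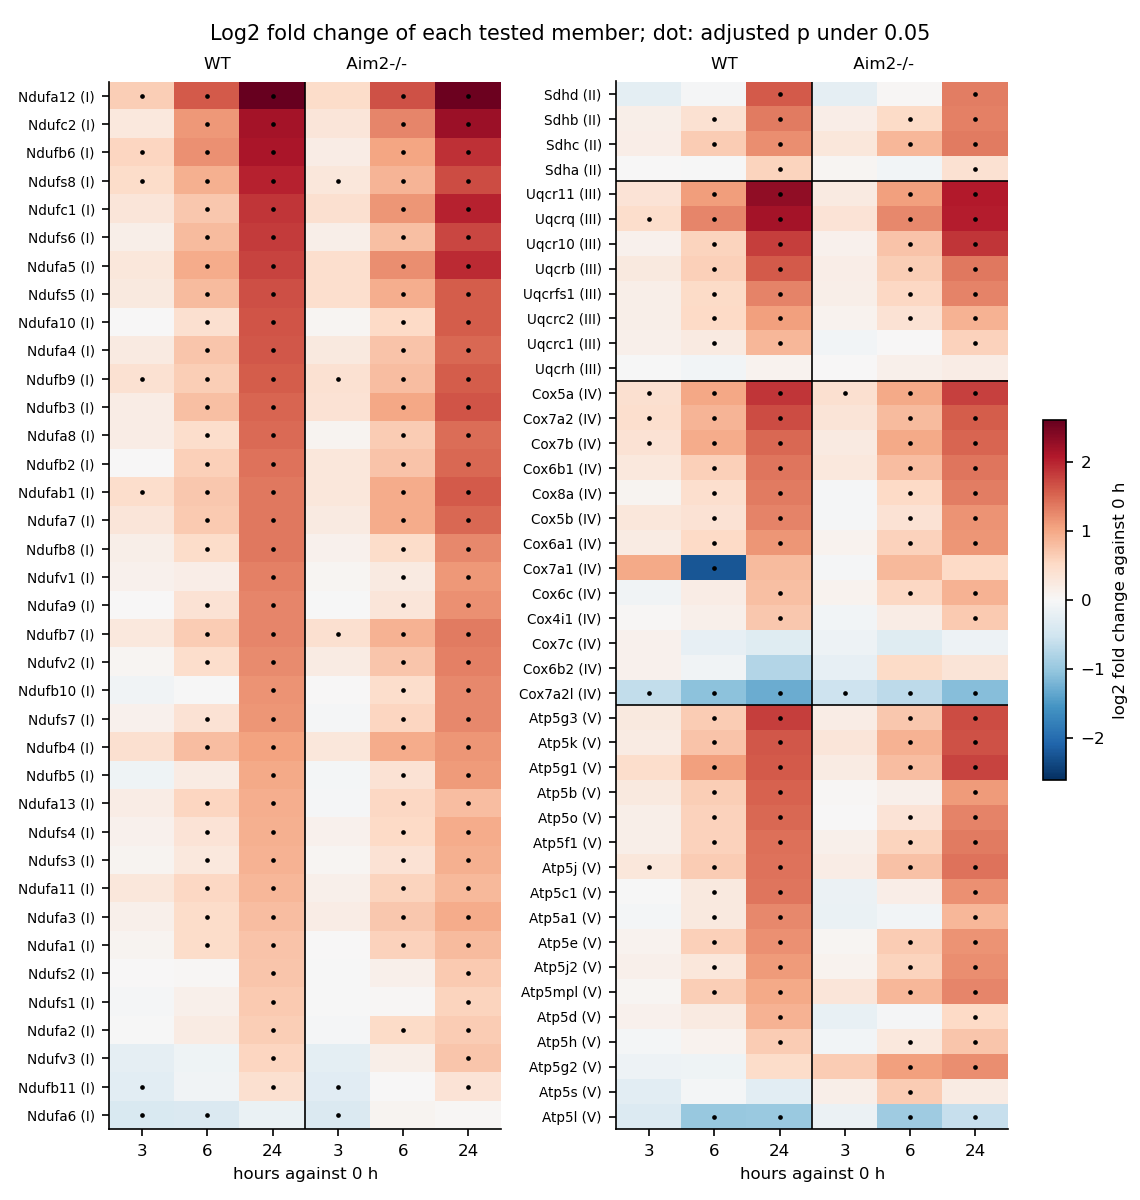
Log2 fold change against 0 h of the 79 members tested (rows, grouped by complex) at 3, 6 and 24 h (columns) in WT and AIM2-/- cells, on 1 colour scale. Nearly all rows darken in the same direction from 3 to 24 h, with 72 members highest at 24 h in each genotype, and the rows of Cox7a2l and Atp5l run the other way.

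The order of the 4 times was alike in most members. In each genotype 72 of 79 members (91.1%) had their highest mean at 24 h, against 39.3% of all genes in WT and 38.8% in AIM2-/-. The mean rose at each of the 3 steps in 58 members (73.4%) in WT and in 51 (64.6%) in AIM2-/-, against 20.3% and 21.2% of all genes. Of the members called higher at 24 h, the median had made 12.7% of its 24 h log2 change by 3 h and 40.1% by 6 h in WT, and 10.8% and 49.1% in AIM2-/-. Over all genes called higher at 24 h those medians were 20.5% and 46.6% in WT, and 22.2% and 50.8% in AIM2-/-.

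By complex, the 24 h change at 6 h was 42.1% in complex I, 38.6% in complex III, 44.0% in complex IV and 40.1% in complex V of WT cells. The 4 genes of complex II stood apart as a description, with a median of 13.8% in WT and 20.6% in AIM2-/-. With 4 genes, and a difference noticed in these libraries, no test was made of it.

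Complex I oxidises NADH, and its L-shaped body is made of a membrane arm and a matrix arm. Of its 37 members tested, 36 were called at 24 h in each genotype, each of them higher, with medians of 1.27 in WT and 1.24 in AIM2-/-. At 6 h 28 were called higher and 1 lower in WT, and 32 were called in AIM2-/-, each higher. At 3 h the counts were 5 higher and 2 lower in WT and 3 higher and 2 lower in AIM2-/-.

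Ndufa12, an accessory subunit of the matrix arm, rose most among the members. Its WT libraries held 9.196, 11.6 and 8.97 CPM at 0 h, 15.6, 17.2 and 13.3 after 3 h, 26.9, 35.6 and 27.3 after 6 h and 59.04, 57.4 and 61.97 after 24 h. In AIM2-/- the values of Ndufa12 were 12.1, 9.89 and 13.9 CPM at 0 h, 13.8, 14.1 and 22.02 after 3 h, 32.8, 34.8 and 45.4 after 6 h and 77.3, 54.5 and 77.4 after 24 h. The libraries of 24 h lay far above those of 0 h without overlap in both genotypes. The 24 h log2 fold change was 2.58 (SE 0.20, edgeR adjusted p = 2e-10) in WT and 2.54 (SE 0.20, edgeR adjusted p = 2.9e-10) in AIM2-/-. In Ndufa12, 26.0% of the 51-base windows of its transcripts were also found in another gene, so part of its reads could have been assigned elsewhere.

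Ndufc2, a subunit of the membrane arm, followed closely. WT libraries held 21.1, 21.1 and 18.6 CPM at 0 h, 25.1, 25.6 and 22.8 after 3 h, 37.05, 52.7 and 43.2 after 6 h and 85.6, 95.2 and 92.6 after 24 h. Ndufc2 in AIM2-/- mice held 20.2, 19.4 and 24.4 CPM at 0 h, 24.8, 22.7 and 31.9 after 3 h, 46.1, 45.8 and 61.9 after 6 h and 100.5, 84.8 and 113 after 24 h. The ranges of 0, 6 and 24 h were fully separate in both genotypes. Its 24 h change was 2.17 (SE 0.15, edgeR adjusted p = 5.8e-11) in WT and 2.22 (SE 0.15, edgeR adjusted p = 5.6e-11) in AIM2-/-.

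Ndufa6, a LYR-motif accessory subunit, was the complex I member with the smallest change and at the same time the one with the most CPM per kb at 0 h. WT libraries held 82.1, 107 and 95.5 CPM at 0 h, 73.4, 68.8 and 75.1 after 3 h, 63.4, 76.9 and 79.7 after 6 h and 77.1, 80.95 and 94.8 after 24 h. AIM2-/- libraries held 77.1, 85.5 and 101 CPM at 0 h, 65.3, 65.2 and 72.1 after 3 h, 87.9, 83.7 and 106 after 6 h and 94.96, 77.8 and 97.3 after 24 h. Its levels dipped at 3 h in both genotypes, by -0.39 (SE 0.12, edgeR adjusted p = 0.0199) in WT and -0.38 (SE 0.12, edgeR adjusted p = 0.0254) in AIM2-/-. At 24 h the log2 fold change was -0.17 (SE 0.12, edgeR adjusted p = 0.225) in WT and 0.04 (SE 0.12, edgeR adjusted p = 0.798) in AIM2-/-, and the ranges of 0 and 24 h overlapped.

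Ndufb11, a membrane-arm subunit, was the only member called lower at 3 h and higher at 24 h in WT. WT libraries held 61.5, 71.2 and 67.4 CPM at 0 h, 55.6, 58.6 and 51.8 after 3 h, 56.5, 65.4 and 65.9 after 6 h and 85.2, 88.6 and 93.2 after 24 h. For Ndufb11 in AIM2-/-, they were 73.7, 69.2 and 78.2 CPM at 0 h, 61.6, 53.2 and 65.7 after 3 h, 70.8, 72.05 and 77.5 after 6 h and 92.2, 85.5 and 104 after 24 h. Its WT values dipped at 3 h and passed the 0 h range only at 24 h. The changes were -0.27 (SE 0.09, edgeR adjusted p = 0.0283) at 3 h and 0.42 (SE 0.09, edgeR adjusted p = 0.000388) at 24 h in WT, and -0.29 (SE 0.09, edgeR adjusted p = 0.0193) and 0.35 (SE 0.09, edgeR adjusted p = 0.00205) in AIM2-/-.

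Ndufa3, a small membrane-arm subunit, had the second most CPM per kb in complex I. WT libraries held 61.4, 74.3 and 69.1 CPM at 0 h, 75.3, 75.8 and 73.3 after 3 h, 75.5, 106 and 102 after 6 h and 112, 121 and 124 after 24 h, and Ndufa3 in AIM2-/- cells stood at 69.6, 72.9 and 88.8 CPM at 0 h, 80.7, 74.3 and 108 after 3 h, 132, 108 and 137 after 6 h and 168, 122 and 164 after 24 h. All libraries of 24 h lay above those of 0 h. Ndufa4 is named as a complex I subunit, but its product is now counted with complex IV. WT libraries held 64.6, 65.4 and 63.9 CPM at 0 h, 78.4, 81.4 and 68.7 after 3 h, 99.4, 115 and 107 after 6 h and 187, 207 and 197 after 24 h. In AIM2-/- the values of Ndufa4 were 71.4, 65.2 and 79.1 CPM at 0 h, 83.6, 72.1 and 101 after 3 h, 107, 117 and 136 after 6 h and 214, 184 and 214 after 24 h. Its rise of 1.61 (SE 0.11, edgeR adjusted p = 5.8e-11) in WT came with no overlap between 0 and 24 h. Its paralog Ndufa4l2, known as a hypoxia-induced form, had at most 6 counts in any library and was not tested.

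Complex II holds 4 subunits and, alone among the complexes, none encoded in mitochondrial DNA. It also takes part in the citric acid cycle. All 4 were called higher at 24 h in both genotypes, with medians of 1.28 in WT and 1.31 in AIM2-/-, and at 6 h 2 were called higher in each genotype. At 3 h 1 of the 4 had an unadjusted p under 0.05 in each genotype, which did not hold after adjustment.

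Sdhd, a membrane anchor of the complex, rose late. WT libraries held 79.3, 73.6 and 69.6 CPM at 0 h, 63.6, 61.6 and 60.8 after 3 h, 77.7, 71.1 and 69.5 after 6 h and 231, 240.4 and 203 after 24 h. Sdhd in AIM2-/- mice held 80.6, 75.1 and 89.2 CPM at 0 h, 76.5, 55.4 and 76.5 after 3 h, 78.7, 81.2 and 92.9 after 6 h and 182, 229 and 204 after 24 h. At 3 h all WT libraries lay under their 0 h range, at 6 h they were back near it, and at 24 h they lay far above it. The log2 fold change was -0.26 (SE 0.11, edgeR adjusted p = 0.0894) at 3 h, -0.03 (SE 0.11, edgeR adjusted p = 0.867) at 6 h and 1.60 (SE 0.11, edgeR adjusted p = 7.3e-11) at 24 h in WT, and 1.33 (SE 0.11, edgeR adjusted p = 1.4e-09) at 24 h in AIM2-/-. The fall at 3 h was called with mouse as a block, at -0.26 (SE 0.10, edgeR adjusted p = 0.0433).

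Sdhb, the iron-sulfur subunit, rose in steps. WT libraries held 77.1, 85.3 and 90.2 CPM at 0 h, 96.7, 97.7 and 85.7 after 3 h, 105, 115 and 112 after 6 h and 206, 221 and 216 after 24 h. AIM2-/- libraries held 80.4, 80.3 and 90.7 CPM at 0 h, 93.2, 95.3 and 94.1 after 3 h, 109.8, 117 and 126 after 6 h and 185, 211 and 223 after 24 h. Its 24 h change was 1.35 (SE 0.08, edgeR adjusted p = 7.5e-12) in WT and 1.30 (SE 0.08, edgeR adjusted p = 1.8e-11) in AIM2-/-. Sdha, the flavoprotein that oxidises succinate, changed least. WT libraries held 264, 266 and 285 CPM at 0 h, 255, 269 and 289 after 3 h, 281, 262 and 265 after 6 h and 388, 439 and 386 after 24 h. For Sdha in AIM2-/-, they were 231, 264 and 256 CPM at 0 h, 259, 277 and 244 after 3 h, 234, 252 and 225 after 6 h and 287, 379 and 316 after 24 h. The 3 h and 6 h libraries overlapped those of 0 h in both genotypes, and the 24 h change was 0.57 (SE 0.09, edgeR adjusted p = 1.2e-05) in WT and 0.39 (SE 0.09, edgeR adjusted p = 0.000944) in AIM2-/-.

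Complex III passes electrons from ubiquinol to cytochrome c. Of its 8 members, 7 were called at 24 h in each genotype, each higher, with medians of 1.44 in WT and 1.33 in AIM2-/-. At 6 h the counts were 7 higher in WT and 6 in AIM2-/-.

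Uqcr11 and Uqcrq, small accessory subunits, changed most. Uqcr11 in WT stood at 13.04, 16.9 and 17.99 CPM at 0 h, 23.3, 21.3 and 16.3 after 3 h, 28.9, 38.5 and 34.1 after 6 h and 77.6, 77.6 and 83.2 after 24 h. Uqcr11 in AIM2-/- cells stood at 21.9, 17.1 and 25.6 CPM at 0 h, 24.5, 19.3 and 32.3 after 3 h, 42.5, 38.6 and 53.6 after 6 h and 93.5, 75.8 and 102 after 24 h. The 24 h change was 2.31 (SE 0.20, edgeR adjusted p = 9.4e-10) in WT and 2.07 (SE 0.19, edgeR adjusted p = 5e-09) in AIM2-/-, with no overlap between 0 and 24 h. Uqcrq in WT stood at 36.6, 45.5 and 38.7 CPM at 0 h, 61.7, 59.3 and 45.6 after 3 h, 82.3, 116 and 92.99 after 6 h and 173, 184 and 186 after 24 h. In AIM2-/- the values of Uqcrq were 44.6, 40.2 and 55.6 CPM at 0 h, 54, 53.3 and 73.1 after 3 h, 94.3, 104 and 136 after 6 h and 198, 169 and 216 after 24 h. Its WT libraries of each time lay above those of the time before, although the highest of 0 h and the lowest of 3 h nearly touched. The 24 h change was 2.17 (SE 0.17, edgeR adjusted p = 3.3e-10) in WT and 2.05 (SE 0.17, edgeR adjusted p = 8.4e-10) in AIM2-/-.

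Uqcrh, the hinge protein that docks cytochrome c, was the exception in complex III. In WT it stood at 186, 242 and 198 CPM at 0 h, 218, 218 and 185 after 3 h, 170.5, 217 and 203 after 6 h and 224, 224 and 222 after 24 h. Uqcrh in AIM2-/- mice held 219, 212 and 269.9 CPM at 0 h, 219, 191 and 289 after 3 h, 254, 228 and 284 after 6 h and 301, 225 and 282 after 24 h. The WT libraries of 24 h lay within the range of 0 h, and the 24 h change was 0.10 (SE 0.15, edgeR adjusted p = 0.564) in WT and 0.20 (SE 0.15, edgeR adjusted p = 0.22) in AIM2-/-. Uqcrc1, a core subunit, stood at 192, 192 and 210.4 CPM at 0 h, 229.5, 218 and 208 after 3 h, 231, 238 and 227 after 6 h and 345, 382 and 362 after 24 h in WT. AIM2-/- libraries held 216, 219.7 and 209 CPM at 0 h, 200.3, 216 and 199 after 3 h, 202, 228 and 214 after 6 h and 286, 349.6 and 341 after 24 h. Its 24 h change of 0.87 (SE 0.08, edgeR adjusted p = 2.3e-09) in WT was modest beside those of the small subunits.

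Complex IV has nuclear subunits with tissue-specific isoforms, and the isoforms known from heart, muscle, lung or testis were low here. Of its 18 members 13 were tested. At 24 h 9 were called higher and 1 lower in each genotype, with medians of 1.15 in both. The others were Cox6b2, Cox7a1 and Cox7c.

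Cox5a, a subunit on the matrix side, rose most. WT libraries held 68.02, 70.8 and 63.7 CPM at 0 h, 94.99, 94.5 and 81.1 after 3 h, 118, 151 and 138 after 6 h and 247, 247 and 239.6 after 24 h. For Cox5a in AIM2-/-, they were 74.5, 69.6 and 88.4 CPM at 0 h, 92.5, 80.4 and 137 after 3 h, 137, 149 and 175 after 6 h and 283, 234 and 283 after 24 h. The groups of 0, 6 and 24 h did not overlap in either genotype. The change was 0.42 (SE 0.15, edgeR adjusted p = 0.0374) at 3 h and 1.86 (SE 0.15, edgeR adjusted p = 6.5e-10) at 24 h in WT, and 1.78 (SE 0.15, edgeR adjusted p = 1.4e-09) at 24 h in AIM2-/-.

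Cox7a2 and Cox7a2l, related in sequence, moved in opposite directions. Cox7a2, a subunit of the complex, held 56.3, 56.9 and 56.6 CPM at 0 h, 79.6, 84.2 and 66.8 after 3 h, 92.1, 112 and 109 after 6 h and 182, 183 and 184 after 24 h in WT. Cox7a2 in AIM2-/- cells stood at 66.05, 58.1 and 71.4 CPM at 0 h, 72.6, 70.98 and 102 after 3 h, 95.2, 118 and 131 after 6 h and 194, 171 and 215 after 24 h. The WT libraries of 24 h lay within 182 to 184 CPM, all above 0 h, and the change was 1.69 (SE 0.14, edgeR adjusted p = 5.6e-10) in WT and 1.57 (SE 0.14, edgeR adjusted p = 2.1e-09) in AIM2-/-. Cox7a2l, known as a factor that joins complexes III and IV into supercomplexes, held 141, 195 and 174 CPM at 0 h, 107, 107 and 115 after 3 h, 66.6, 82.2 and 94.4 after 6 h and 67.5, 69.2 and 70.3 after 24 h in WT. In AIM2-/- the values of Cox7a2l were 124, 157 and 191 CPM at 0 h, 96.5, 100.4 and 126 after 3 h, 90.4, 98.1 and 105 after 6 h and 73.1, 69.8 and 75.7 after 24 h. Its WT mean was lower at each later time, and the libraries of 24 h lay under all libraries of 0 h in both genotypes. Its changes were -0.63 (SE 0.14, edgeR adjusted p = 0.00158) at 3 h, -1.07 (SE 0.14, edgeR adjusted p = 2.4e-06) at 6 h and -1.30 (SE 0.15, edgeR adjusted p = 6.4e-08) at 24 h in WT, and -1.11 (SE 0.14, edgeR adjusted p = 7e-07) at 24 h in AIM2-/-. Without WT mouse 1 the WT change at 24 h was -1.40. Of its transcript windows 19.6% were shared with another gene.

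**Figure D3:**
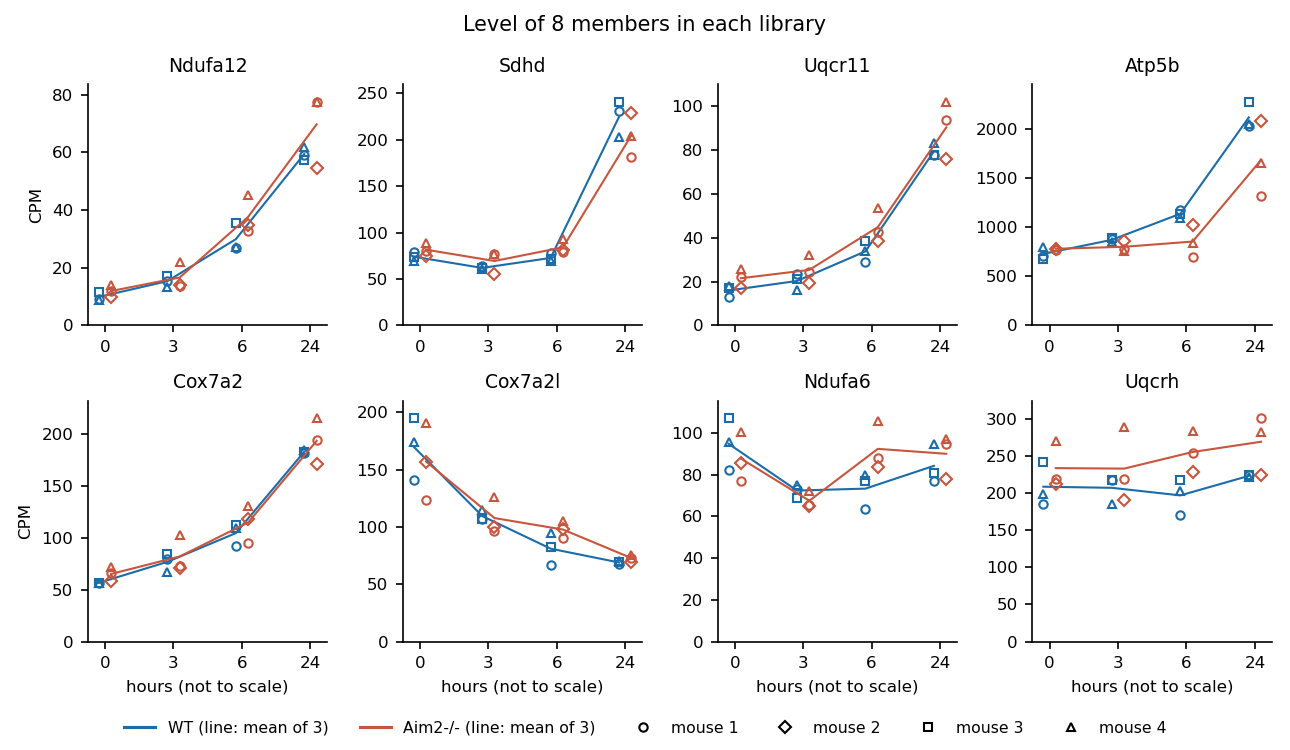
CPM (y axis, linear from 0) of 8 members by library at 0, 3, 6 and 24 h (x axis), with each point 1 mouse, WT and AIM2-/- in separate colours and a line through the mean of 3. The mean lines of Ndufa12, Uqcr11 and Cox7a2 climb at each time, Sdhd stays near its 0 h level until 6 h and climbs by 24 h, Cox7a2l falls, and the WT libraries of Uqcrh at 24 h lie within their 0 h range.

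Cox4i1, the widely expressed form of subunit 4, held 239, 289.9 and 270.4 CPM at 0 h, 300.0, 273 and 251 after 3 h, 269, 314 and 292 after 6 h and 435, 431 and 429 after 24 h in WT. Cox4i1 in AIM2-/- mice held 287, 277 and 333 CPM at 0 h, 266, 256 and 335 after 3 h, 317, 326 and 376 after 6 h and 493, 434 and 507 after 24 h. It changed by 0.70 (SE 0.11, edgeR adjusted p = 9.4e-06) in WT at 24 h, while its lung-type paralog Cox4i2 had at most 4 counts in any library. Cox6a1 held 83.9, 114 and 104 CPM at 0 h, 126, 120.3 and 102 after 3 h, 114, 164 and 153 after 6 h and 213, 227 and 228 after 24 h in WT. AIM2-/- libraries held 117, 106 and 129 CPM at 0 h, 110.3, 105 and 160.3 after 3 h, 163, 165 and 201 after 6 h and 282, 214 and 286 after 24 h. Its heart and muscle paralog Cox6a2 had at most 14 counts in any library and was not tested. Cox6b1 held 94.2, 104 and 95.6 CPM at 0 h, 132, 118 and 106 after 3 h, 132, 166 and 152 after 6 h and 259.7, 256 and 255 after 24 h in WT. For Cox6b1 in AIM2-/-, they were 109.9, 104 and 130.0 CPM at 0 h, 127, 119 and 167 after 3 h, 190.1, 179.5 and 228 after 6 h and 312, 264 and 335 after 24 h. Its 24 h change was 1.39 (SE 0.13, edgeR adjusted p = 5.2e-09) in WT and 1.40 (SE 0.13, edgeR adjusted p = 5.1e-09) in AIM2-/-.

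Cox6b2, the testis form, held 1.999, 2.33 and 1.42 CPM at 0 h, 2.36, 1.89 and 1.96 after 3 h, 1.51, 1.85 and 2.04 after 6 h and 1.11, 0.565 and 1.69 after 24 h in WT. In AIM2-/- it held 4.36, 2.56 and 3.25 CPM at 0 h, 4.04, 1.15 and 3.53 after 3 h, 6.497, 2.17 and 5.72 after 6 h and 6.696, 1.41 and 4.72 after 24 h, where mouse 2 lay under mice 1 and 4 at every time. Its 24 h log2 fold changes of -0.76 in WT and 0.34 in AIM2-/- were not called. Cox7a1, the muscle form, had between 0 and 16 counts per library, where 3 counts is taken as the floor of detection. It was called lower in WT at 6 h, from counts of 3, 4 and 3 against 1, 1 and 0, and no fold is given since both groups are near that floor. Cox7b held 57.97, 63.5 and 60.1 CPM at 0 h, 82.3, 78.9 and 75.4 after 3 h, 110.0, 132 and 114 after 6 h and 159, 174 and 178 after 24 h in WT. Cox7b in AIM2-/- cells stood at 66.97, 63.2 and 72.9 CPM at 0 h, 74.6, 71.3 and 92.3 after 3 h, 113, 126 and 164 after 6 h and 212, 163 and 206 after 24 h. Cox8a held 47.5, 55.3 and 51.2 CPM at 0 h, 61.9, 59.4 and 40.95 after 3 h, 57.8, 81.2 and 67.9 after 6 h and 133, 125 and 133 after 24 h in WT. In AIM2-/- the values of Cox8a were 63, 58.3 and 61.8 CPM at 0 h, 50.7, 53.9 and 73.8 after 3 h, 82.3, 82.1 and 95.5 after 6 h and 148, 138 and 173 after 24 h. Both rose without overlap between 0 and 24 h, while Cox7b2, Cox8b and Cox8c, known from testis or muscle, had 0 counts in all 24 libraries. A count of 0 allows up to 3 counts in a library, a limit that covers counting error only.

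Complex V is the rotary ATP synthase. Of its 17 members tested, 14 were called higher and 1 lower at 24 h in WT, and 15 higher and 1 lower in AIM2-/-, with medians of 1.25 and 1.20. At 6 h 12 were called higher and 1 lower in each genotype. At 3 h Atp5j, a stalk subunit, was called higher in WT.

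Atp5g3, one of the genes for the c subunit that forms the rotor ring, rose most. WT libraries held 165, 149.8 and 149 CPM at 0 h, 195, 193 and 164 after 3 h, 219, 272 and 249 after 6 h and 515, 552 and 543 after 24 h. Atp5g3 in AIM2-/- mice held 165, 158 and 184 CPM at 0 h, 178, 166 and 234 after 3 h, 248, 255 and 321 after 6 h and 549, 482 and 603 after 24 h. The change at 24 h was 1.80 (SE 0.13, edgeR adjusted p = 7.8e-11) in WT and 1.69 (SE 0.13, edgeR adjusted p = 2.5e-10) in AIM2-/-, with no overlap. Atp5k, the e subunit that takes part in dimers of the synthase, held 35.03, 39.7 and 37.6 CPM at 0 h, 46.8, 48.1 and 34.6 after 3 h, 51.9, 73.95 and 63.8 after 6 h and 111, 117 and 116 after 24 h in WT. AIM2-/- libraries held 46.6, 36.1 and 48.1 CPM at 0 h, 52.7, 40.6 and 68.97 after 3 h, 73.8, 75.4 and 95.6 after 6 h and 156, 109.5 and 144 after 24 h. The 24 h libraries lay above all libraries of the earlier times in both genotypes.

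Atp5b, the catalytic beta subunit, had the most counts of the members. WT libraries held 704, 680.4 and 803 CPM at 0 h, 878, 889 and 849 after 3 h, 1180, 1139 and 1092 after 6 h and 2031, 2271 and 2050 after 24 h. For Atp5b in AIM2-/-, they were 766, 779 and 798 CPM at 0 h, 781, 861 and 761 after 3 h, 702, 1023 and 838 after 6 h and 1320, 2083 and 1653 after 24 h. At 6 h the WT libraries lay above every AIM2-/- library, and at 24 h mouse 2 of AIM2-/- reached the WT range while mice 1 and 4 did not. Its 24 h change was 1.54 (SE 0.14, edgeR adjusted p = 1.8e-09) in WT and 1.11 (SE 0.13, edgeR adjusted p = 2.4e-07) in AIM2-/-. Atp5a1, the alpha subunit that alternates with beta in the catalytic head, held 656, 644 and 688 CPM at 0 h, 659.5, 650.0 and 618 after 3 h, 813, 792 and 765 after 6 h and 1551, 1695 and 1502 after 24 h in WT. Atp5a1 in AIM2-/- cells stood at 714, 691 and 761 CPM at 0 h, 627, 644 and 639 after 3 h, 618, 764 and 677 after 6 h and 1118, 1540 and 1310 after 24 h. Its 24 h change was 1.25 (SE 0.10, edgeR adjusted p = 2.8e-10) in WT and 0.87 (SE 0.10, edgeR adjusted p = 7.9e-08) in AIM2-/-.

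Atp5l, the g subunit, was the member called lower in complex V. WT libraries held 12.4, 8.88 and 11.2 CPM at 0 h, 9.16, 8.401 and 7.84 after 3 h, 5.805, 6.42 and 4.28 after 6 h and 6.68, 3.595 and 6.41 after 24 h. In AIM2-/- the values of Atp5l were 9.73, 9.99 and 7.62 CPM at 0 h, 8.16, 9.898 and 6.45 after 3 h, 4.697, 5.17 and 4.52 after 6 h and 7.62, 5.39 and 5.08 after 24 h. It changed by -0.96 (SE 0.23, edgeR adjusted p = 0.000865) in WT and -0.60 (SE 0.23, edgeR adjusted p = 0.0261) in AIM2-/- at 24 h. However, 84.8% of its windows were shared with 14 other genes, so that its counts are those of the reads not lost to these copies. Atp5g2 shared 87.4% of its windows and was called higher in AIM2-/- (1.20) and not in WT (0.47). Atp5s, which is not a subunit of the purified synthase, was not called in either genotype (-0.27 and 0.22).

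Read sharing differed widely among the exceptions to the rise. Of the 9 members not called higher in both genotypes, Ndufa6, Cox6b2, Cox7a1 and Atp5s shared no 51-base window with another gene, Uqcrh shared 7.6%, Cox7a2l 19.6% and Cox7c 52.9%. Split by that share, 30 of the 34 members with no shared window were called higher at 24 h in WT, 28 of the 30 with up to 25%, and 12 of the 15 above it, with medians of 1.24, 1.32 and 1.28. The tested members with the largest shares, Atp5g2 (87.4%), Atp5l (84.8%) and Cox7c (52.9%), were all among the 9 exceptions. They were also the members above 25% that were not called higher in WT. The part of read sharing in their values was not tested. In all, 39 of the 86 members overlap another gene in the annotation, 13 of them on the same strand, and how the counting used strand is not given in the sources used here.

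Levels can be compared between genes per kb of the principal transcript. In unstimulated WT cells Uqcrh stood highest at 382 ± 53.8 CPM per kb, then Atp5b at 380.4 ± 33.9, Cox4i1 at 348.2 ± 33.7, Atp5a1 at 268 ± 9.10 and Atp5e at 248 ± 33.2 (mean ± SD, n = 3). The first 3 did not differ beyond their spread, nor did Atp5a1 and Atp5e. At 24 h in WT the order had changed, with Atp5b at 1105 CPM per kb, Atp5g3 at 742, Atp5a1 at 640.4, Cox4i1 at 564, Atp5e at 562, Cox6b1 at 415.5 and Uqcrh, now the seventh, at 408. Atp5g3 had been the sixth at 0 h, at 214 ± 12.8.

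Few members were called between AIM2-/- and WT cells. At 0 h edgeR called 0 members between the genotypes (all genes 5.23%), with 5 at an unadjusted p under 0.05, while DESeq2 called 2 and limma-voom 0. The median log2 difference, AIM2-/- minus WT, was 0.12, against -0.01 over all genes. At 3 h edgeR, DESeq2 and voom each called 0 (all genes 0.294%), with 1 at an unadjusted p under 0.05 and a median of 0.09. At 24 h edgeR called 0 (all genes 0.666%), with 9 at an unadjusted p under 0.05 and a median of 0.12, while DESeq2 called 2 and voom 0. Without WT mouse 1 edgeR again called 0 at 0, 3 and 24 h, with 3, 3 and 8 members at an unadjusted p under 0.05 and medians of 0.09, 0.12 and 0.10.

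At 6 h 8 members were called higher and 1 lower in AIM2-/- cells, against 15.8% of all genes called in either direction, so the share of members lay under the background. The median was 0.23, against 0.05 over all genes, with 68 of the 79 members above 0 and 31 at an unadjusted p under 0.05. Without WT mouse 1 the count was 2, both higher (Ndufb10 and Cox7a1). Without mouse 3 or 4 of WT it was 1 and 0 (26 and 16 at an unadjusted p under 0.05), and without mice 1, 2 or 4 of AIM2-/- it was 0 (33 at an unadjusted p under 0.05), 26 and 2. The share of all genes called without a mouse is not given, so these counts have no background. The B cell, myeloid, erythroid and NK cell sums moved with genotype in the same libraries. At 6 h the erythroid sum was 16.0, 64.9 and 8.08 CPM in WT and 497.5, 23.2 and 229.8 CPM in AIM2-/-, and the NK cell sum 50.3 to 56.2 and 65.5 to 99.6 CPM. The 4 activation markers (Il2ra, Cd69, Myc and Tfrc) also differed at 6 h, with sums of 2400 to 2663 CPM in WT and 1431 to 1977 CPM in AIM2-/-. At 0 h their sums overlapped, at 466.8 to 580.1 and 468.2 to 542.8 CPM. The part of all these sums in the differences here and in the interactions below was not tested.

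Ndufb10, a membrane-arm subunit of complex I, showed the clearest difference at 6 h. WT libraries held 52.5, 62.8 and 60.4 CPM at 0 h, 57.6, 54.6 and 53.1 after 3 h, 54.1, 61.2 and 59.2 after 6 h and 124, 134 and 134 after 24 h. Ndufb10 in AIM2-/- mice held 60.2, 56.6 and 68.3 CPM at 0 h, 66.5, 51.8 and 66.7 after 3 h, 90.7, 73.6 and 89.7 after 6 h and 153, 125 and 159 after 24 h. At 0 and 3 h the ranges overlapped, at 6 h all AIM2-/- libraries lay above all of WT, and at 24 h they overlapped again. The difference at 6 h was 0.54 (SE 0.11, edgeR adjusted p = 0.00776). Ndufa2, an accessory subunit of the matrix arm, held 53.9, 68.8 and 60.8 CPM at 0 h, 68.6, 59.4 and 54.6 after 3 h, 60.3, 81.2 and 70.6 after 6 h and 96.4, 96.2 and 90.7 after 24 h in WT. AIM2-/- libraries held 75.05, 63.6 and 83.4 CPM at 0 h, 71.7, 56.7 and 87.6 after 3 h, 101, 92.1 and 119.7 after 6 h and 131, 91.02 and 129 after 24 h. The difference at 6 h was 0.56 (SE 0.16, edgeR adjusted p = 0.0279).

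Atp5j2, the f subunit of complex V, held 38.4, 39.7 and 37.2 CPM at 0 h, 44.4, 41.5 and 40.3 after 3 h, 40.3, 51.5 and 49.05 after 6 h and 82.3, 81.3 and 83.1 after 24 h in WT. For Atp5j2 in AIM2-/-, they were 40.99, 40.99 and 41.6 CPM at 0 h, 41.6, 41.9 and 48.5 after 3 h, 58.1, 56.4 and 68.5 after 6 h and 106, 74.1 and 104 after 24 h. It differed by 0.38 (SE 0.11, edgeR adjusted p = 0.0341) at 6 h, and Cox6b1 by 0.41 (SE 0.13, edgeR adjusted p = 0.0383). Atp5b was the member called lower, by -0.41 (SE 0.13, edgeR adjusted p = 0.0421). Cox7a1 was called higher from 16, 5 and 12 counts against 1, 1 and 0, a level at least 3.55-fold higher than the floor of 3 counts per library. The remaining members called higher at 6 h were Ndufa13 (0.40), Ndufa8 (0.32) and Ndufb9 (0.36).

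Whether stimulation acted differently in the genotypes was tested by the interaction of genotype and time. edgeR called 0 members at 3 h (all genes 0.0%), 0 at 6 h (all genes 0.0261%) and 0 at 24 h (all genes 0.0%). At an unadjusted p under 0.05 there were 0, 6 and 4 members, and DESeq2 and limma-voom called 0 at each time. The medians of the interaction were -0.03, 0.09 and -0.01. With mouse as a block 3 members were called at 6 h, where that fit called 4.68% of all genes, so the share of members lay under the background. They were Ndufb10 at 0.46 (SE 0.10, edgeR adjusted p = 0.0156), Ndufa6 at 0.45 (SE 0.13, edgeR adjusted p = 0.0459) and Atp5b at -0.53 (SE 0.14, edgeR adjusted p = 0.0372).

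The genotype difference moved with transcript length and GC content. Members have short transcripts, with a median longest transcript of 1046 bases against 2998 for all genes tested, and a median GC content of 50.2% (37.0 to 63.3%) against 49.6%. Across the 79 members the Spearman correlation of the AIM2-/- minus WT difference with length was -0.48, -0.31, -0.50 and -0.42 at 0, 3, 6 and 24 h, and with GC content 0.29, 0.04, 0.30 and 0.12. Genes of the same libraries are not independent replicates, so these are descriptions. Over all genes the correlations with length were -0.14, -0.08, -0.20 and -0.23. When the trend of each library with GC content and length was taken out, the median difference of the members went from 0.12, 0.09, 0.23 and 0.12 to -0.10, -0.07, -0.05 and -0.17, and the sign changed in 41, 39, 41 and 44 members. At 6 h 3 members were then called, 1 higher (Cox7a1) and 2 lower (Atp5b and Atp5o). With the correction and without WT mouse 1, the medians were -0.13, -0.11, -0.13 and -0.22, and 6, 1, 5 and 3 members were called, each lower but 1 of the 5. The share of all genes called in the corrected fits, here and below, is not given. Their counts of members can therefore not be set against a background.

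For the 24 h change with stimulation the Spearman correlation with GC content was -0.08 in each genotype, and with length -0.12 in WT and -0.14 in AIM2-/-. At earlier times those with length were -0.21 (3 h) and -0.12 (6 h) in WT and -0.10 and -0.29 in AIM2-/-, and -0.37 for the AIM2-/- step from 3 to 6 h. After the correction the WT medians of 3, 6 and 24 h were 0.03, 0.30 and 1.05, from 0.15, 0.48 and 1.27, and those of AIM2-/- 0.05, 0.37 and 0.97, from 0.11, 0.58 and 1.24. The sign changed in 11, 4 and 1 members in WT and in 10, 10 and 3 in AIM2-/-. The corrected WT medians without WT mouse 1 were 0.01, 0.32 and 1.03. The calls at 24 h were then 70 higher and 4 lower in WT and 68 higher and 1 lower in AIM2-/-.

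**Figure D4:**
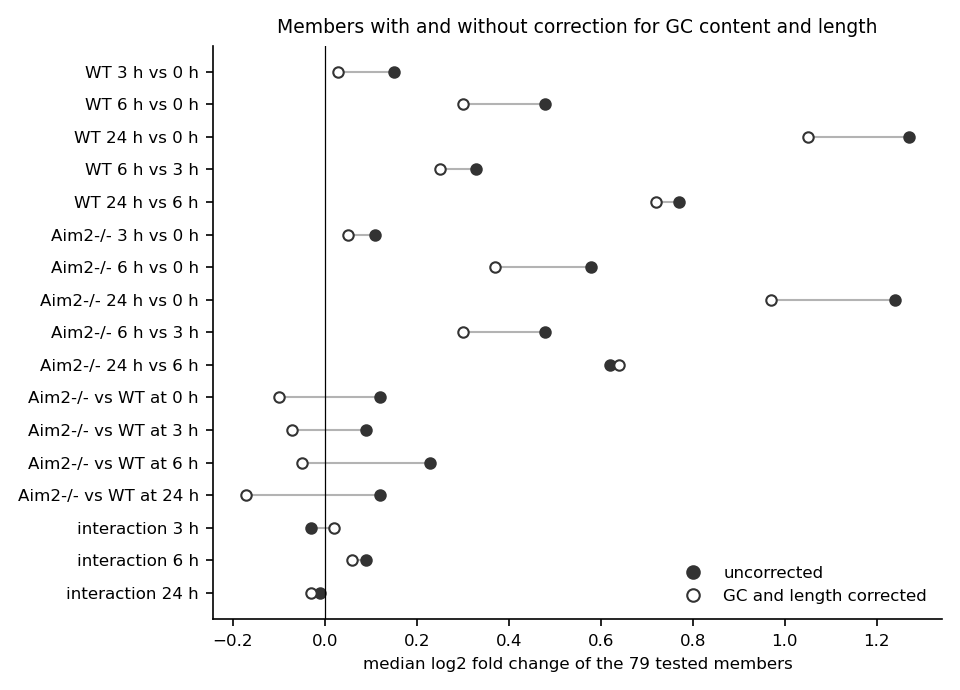
Median log2 difference of the 79 members in each comparison (y axis) as fitted and after correction of each library for GC content and transcript length, for stimulation and for genotype. The stimulation medians stay above 0 at each time, at 1.05 in WT and 0.97 in AIM2-/- at 24 h after correction, while the 4 genotype medians change sign.

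Among the genes that work beside the members, the subunits encoded in mitochondrial DNA did not share the rise in WT. Of the 13, 7 were tested, since the other 6 had at most 3 counts per library. Why those 6 had almost no counts was not tested, and read sharing was not examined for the 13. Their summed level below is therefore nearly all from the 7. In WT 3 were called at 24 h, each lower, mt-Nd5 by -0.78, mt-Nd4 by -0.64 and mt-Co1 by -0.62. In AIM2-/- 2 were called, each higher, mt-Nd1 at 0.87 and mt-Nd6 at 0.82. Their summed level went from 17280 ± 2315 to 12740 ± 730.2 CPM in WT (mean ± SD, n = 3) and from 15840 ± 3045 to 18500 ± 6554 CPM in AIM2-/-, where the 24 h libraries spread from 11620 to 24670. The test of the difference between the genotypes' responses at 24 h passed for none of the 7 with edgeR, 3 of them at an unadjusted p under 0.05, the largest being 1.09 (SE 0.44, edgeR adjusted p = 0.327) for mt-Nd6.

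Assembly factors, which build the complexes without staying in them, rose with the members. Of 49 tested, 40 were called higher and 1 lower at 24 h in WT and 41 higher in AIM2-/-, with medians of 0.99 and 1.02. The largest WT changes were those of Nubpl (3.31), which delivers iron-sulfur clusters to complex I, Uqcc2 (2.81) of complex III, and Ndufaf6 (2.63) and Ndufaf2 (2.62) of complex I. Of the 18 electron carriers and enzymes of ubiquinone synthesis, 14 were called higher and 3 lower in WT and 13 and 3 in AIM2-/-. Coq7, Coq4 and Pdss1 rose by 3.38, 3.23 and 2.69, and Coq8a fell by 4.73 on the log2 scale in WT.

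Of 16 regulators of mitochondrial gene expression tested, 9 were called higher and 4 lower at 24 h in WT and 8 and 5 in AIM2-/-. Myc rose by 3.11, Tfb1m by 1.94 and Twnk by 1.76, and Polg2, the accessory subunit of the mitochondrial DNA polymerase, fell by 2.25 on the log2 scale in WT. Tfam, which packages mitochondrial DNA, changed by 0.80. Among factors known to bind promoters of OXPHOS genes, Nrf1 changed by -0.18 (edgeR adjusted p = 0.0508), Gabpa by 0.29, Gabpb1 by -1.40 and Yy1 by -0.45.

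Because the members moved together, the promoters were searched for the letters that these factors are known to bind. RefSeq windows on GRCm38.p6, from 250 bases before the start to 50 after it, matched 70 of the 86 members, and 72 windows belonged to 67 members tested. Both strands were searched. GCGCANGCG (NRF1) was found in 21 of the 72 windows (29.17%), against 12.49% of windows of all genes tested and 6.25% of all windows in the table. CCGGAAG (ETS factors, the family of GABPA) was found in 16 (22.22%, against 16.93% and 8.86%), AAGATGGCG (YY1) in 7 (9.72%, against 2.86% and 1.40%) and CACGTG (E box, bound by MYC) in 7 (9.72%, against 9.80% and 7.15%). A match describes the letters in the window and is no evidence that a factor binds there, and GCGCANGCG reads partly the same on both strands, so some matches overlap.

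The 7 members with the YY1 letters are shown in full because the matches fall at almost the same place. In 6 of the 7 the match began within bases 21 to 40 of the transcript, where the first transcribed base is 1, and in Atp5j it began 88 bases before the start. Of the 401 matches in windows of all genes tested, 30.7% began within bases 21 to 40. Sites are written 5′ to 3′ on the strand of the gene, with the match in capitals.
Ndufa9 (complex I, chr6:126849100-126849122, minus strand gene, match at 30): gtgggagAAGATGGCGgccgccg
Ndufc1 (complex I, chr3:51408918-51408940, minus strand gene, match at 23): gcggaacAAGATGGCGccgtccg
Ndufs4 (complex I, chr13:114388045-114388066, minus strand gene, match at 36): ctacaggAAGATGGCGgcggtc
Ndufs6 (complex I, chr13:73328434-73328456, minus strand gene, match at 34): caccggcAAGATGGCGgcggtgc
Ndufs7 (complex I, chr10:80249466-80249488, plus strand gene, match at 25): cgaggccAAGATGGCGgcgctgg
Atp5j (complex V, chr16:84835049-84835071, minus strand gene, match at -88): tgtaggaAAGATGGCGgagtctt
Atp5j2 (complex V, chr5:145191503-145191525, minus strand gene, match at 24): ggacttcAAGATGGCGtcactcg
These 7 genes were among the members called higher at 24 h in both genotypes, with WT log2 fold changes of 1.27, 1.86, 0.93, 1.81, 1.15, 1.42 and 1.10 in the order shown.

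NRF1 matches were spread more widely, with 33 in all, 6 of them after the start, and a median position of -42. Separate sites are fewer than matches. Some sites match on both strands, as in Cox6a1 at -162 and -161. The same Ndufa5 bases count at -190 and at -26, from overlapping windows. NRF1 matches were found in members of each complex, shown here by a site each, on the strand where the letters were found.
Ndufb4 (complex I, chr16:37654375-37654397, minus strand gene, match at -22): catatccGCGCAGGCGcagatgt
Sdhd (complex II, chr9:50603913-50603935, minus strand gene, match at -79): ctggggtGCGCACGCGcggtggc
Uqcr11 (complex III, chr10:80406811-80406833, minus strand gene, match at -5 on the other strand): acgtataGCGCATGCGtgaaggc
Cox6a1 (complex IV, chr5:115349060-115349082, minus strand gene, match at -117): ataaagtGCGCAGGCGctggagt
Atp5g3 (complex V, chr2:73911298-73911320, minus strand gene, match at 14 on the other strand): gctgggcGCGCAAGCGcggtgcg
ETS matches, 19 in all, were likewise found in each complex, also in Sdhd, Uqcr11 and Cox6a1 beside the NRF1 letters.
Ndufb7 (complex I, chr8:83566731-83566751, plus strand gene, match at -20): agatgacCCGGAAGacactga
Sdhd (complex II, chr9:50603882-50603902, minus strand gene, match at -46 on the other strand): gcgtgaaCCGGAAGgcaggag
Uqcr11 (complex III, chr10:80406874-80406894, minus strand gene, match at -66): ctcctccCCGGAAGtagatgt
Cox8a (complex IV, chr19:7217608-7217628, minus strand gene, match at -5 on the other strand): gcccgagCCGGAAGtatttcg
Atp5e (complex V, chr2:174464190-174464210, minus strand gene, match at -102 on the other strand): gcggctaCCGGAAGctgtggc
Atp5l, called lower at 24 h, held NRF1 letters at -241, ETS letters at -212 and 25 and an E box at -147, so such letters were found in members that rose and in 1 that fell. Uqcrh and Ndufa6, the members at a high level that did not rise, also held them, Uqcrh those of ETS factors at -10 and Ndufa6 those of NRF1 at 25.

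Upstream sequences of 3 members chosen after their values were seen show a rising gene with 1 NRF1 match, a rising gene with 1 ETS match and the falling Cox7a2l with no match in its 250 bases. They are written on the strand of the gene and end 1 base before the RefSeq start. That start lies 2997 bases inside the annotated gene for Cox7a2l, 16 for Ndufs5 and 0 for Ndufb6, and the bases before the outermost start of Cox7a2l were not searched.
Ndufs5 (GRCm38.p6 chr4:123718187-123718436, minus strand): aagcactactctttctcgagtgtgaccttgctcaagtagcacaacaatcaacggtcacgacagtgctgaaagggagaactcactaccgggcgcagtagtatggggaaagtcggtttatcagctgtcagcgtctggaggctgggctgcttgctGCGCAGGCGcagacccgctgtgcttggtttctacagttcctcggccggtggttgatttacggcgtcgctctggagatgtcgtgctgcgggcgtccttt
Ndufb6 (GRCm38.p6 chr4:40279422-40279671, minus strand): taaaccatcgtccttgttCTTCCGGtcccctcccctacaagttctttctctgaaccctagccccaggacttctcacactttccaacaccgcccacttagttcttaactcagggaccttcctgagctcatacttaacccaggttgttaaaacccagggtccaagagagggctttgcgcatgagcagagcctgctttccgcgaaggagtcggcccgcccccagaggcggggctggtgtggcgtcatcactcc
Cox7a2l (GRCm38.p6 chr17:83514334-83514583, minus strand): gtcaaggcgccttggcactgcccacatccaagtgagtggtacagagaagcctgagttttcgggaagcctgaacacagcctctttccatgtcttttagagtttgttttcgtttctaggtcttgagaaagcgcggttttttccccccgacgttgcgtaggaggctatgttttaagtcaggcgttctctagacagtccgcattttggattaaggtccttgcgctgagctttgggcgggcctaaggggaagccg
Ndufs5 changed by 1.67 and 1.57 at 24 h in WT and AIM2-/-, and Ndufb6 by 2.12 and 1.90. In Ndufb6 the capitals are the ETS letters read from the other strand.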

How the data were processed

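The authors prepared stranded mRNA libraries, read 51 bases from 1 end, aligned them with STAR to GRCm38 under Ensembl release 94, and deposited unnormalized counts of reads for each gene. The sources used here do not give how strand was used in counting, and the submitters' processing notes also name edgeR and DESeq2. Symbols, lengths and GC content came from GENCODE M21, which matched 54409 of the 54446 identifiers.

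edgeR 4.0.16 (R 4.3.3) fitted 1 mean per group to all 24 libraries with TMM factors, after filterByExpr (minimum count 10), with its quasi-likelihood test, two-sided, and Benjamini-Hochberg adjustment over 15325 genes per comparison. A member was called at an adjusted p under 0.05. The biological coefficient of variation was 18.6%. Alternatives were RLE factors, library totals, DESeq2 1.42.0, limma-voom 3.58.1, other filters, a correction for GC content and length, fits of the compared libraries alone, and leaving out each library or mouse. The block and the correction without WT mouse 1 were added after seeing the data. P-values of the main fit rest on the spread between libraries within groups, 3 per group, estimated over all 24. That fit takes the libraries of 1 mouse at several times as independent, which they are not. With mouse as a block, p-values measure the spread that remains within mice.

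Libraries of 1 mouse at several times are paired by the labels. Deviations from the group means correlated at 0.139 to 0.567 in the 36 pairs of libraries of 1 mouse, and at -0.432 to 0.0742 in the 72 pairs of different mice, so values with mouse as a block are given where they change a result.

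Named members are, in each complex, the 2 with the largest and the 1 with the smallest 24 h change in WT and the 2 with the most CPM per kb, then members called between genotypes, members that turned direction, and pairs of isoforms. Members and lists were chosen with earlier results of these data known, and the members whose promoters are shown after their values were seen.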

Additional observations from a re-analysis of the deposited data

Results flagged for a closer look

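Interactions of genotype and stimulation at 6 h passed the threshold in 3 members when mouse was a block in the edgeR fit, each a test of the difference between the responses of AIM2-/- and WT cells. The values, AIM2-/- minus WT on the log2 scale, were 0.46 for Ndufb10 (SE 0.10, edgeR adjusted p = 0.0156), 0.45 for Ndufa6 (SE 0.13, edgeR adjusted p = 0.0459) and -0.53 for Atp5b (SE 0.14, edgeR adjusted p = 0.0372). Without the block the interactions were 0.47, 0.45 and -0.51, with edgeR adjusted p of 0.207, 0.273 and 0.239. With the block and the correction for GC content and length together they were 0.43, 0.40 and -0.58, and 2 further members were called, Atp5d at -0.36 and Cox7a1, the latter from counts near the floor and so without a value. Ndufb10 rose in AIM2-/- cells by 6 h and in WT cells only later, Ndufa6 was called lower at 6 h in WT and not in AIM2-/-, and Atp5b was called higher at 6 h in WT and not in AIM2-/-. Over all genes the blocked fit called 4.68%. Without the libraries labelled WT mouse 1 the blocked values were 0.48 for Ndufb10 (SE 0.10, edgeR adjusted p = 0.0185), 0.44 for Ndufa6 (SE 0.13, edgeR adjusted p = 0.0719) and -0.48 for Atp5b (SE 0.16, edgeR adjusted p = 0.105), so the calls of Ndufa6 and Atp5b were lost.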

How the results depend on the processing

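The rise at 24 h held in every alternative run, with 71 to 73 members called in AIM2-/- and 72 or 73 in WT when 1 library or mouse was left out. Of 172 counts of called members under other alternatives, 140 lay within 1.5 times the main count and 32 moved further, and of 192 that left out a library or mouse, 154 and 38. Library totals shift the median of all genes by 0.12 to 0.20 at 3 and 6 h, so calls there are relative to that shift. The cause of the changes below was not tested.

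Counts of called members that moved were as follows. At 3 h the WT count of 13 became 27 with library totals, 26 with mouse as a replicate block, 20 with block and GC correction, and 5, 2 and 3 without WT mice 1, 3 and 4. The AIM2-/- count of 7 became 21 with library totals, 13 with GC correction, 21 with mouse as a block, 24 with block and GC correction, 2 with the compared libraries alone, and 4 and 2 without AIM2-/- mice 2 and 4. From 3 to 6 h the WT count of 38 became 7 without WT mouse 3 and 7 without WT mouse 4, and the AIM2-/- count of 58 became 34 with GC correction, 12 with the compared libraries alone, and 38 and 37 without AIM2-/- mice 1 and 2.

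Between genotypes, mouse numbers pair nothing, since numbers 1 and 4 name different mice in the 2 genotypes (correlation of deviations -0.165 to 0.3), and a block by number takes several libraries of 1 mouse as independent. It gave 20, 12, 48 and 26 calls at 0, 3, 6 and 24 h, and 14, 8, 29 and 27 with GC correction. For these counts and those below, the share of all genes called in the same fit is not given. They are set beside the main count only and are no result about the members. At 0 h the count of 0 became 1 with library totals, 2 with DESeq2, 1 without the filter, 1 with GC correction and 4 without AIM2-/- mouse 2. At 6 h the count of 9 became 18 with library totals, 5 without the filter, 3 with GC correction, 2 with the compared libraries alone, 2, 1 and 0 without WT mice 1, 3 and 4, and 0, 26 and 2 without AIM2-/- mice 1, 2 and 4. At 24 h the count of 0 became 2 with DESeq2, 1 without the filter, 1 with GC correction and 11 without AIM2-/- mouse 2. Interaction calls became 3 at 6 h with the block, 5 with block and GC correction, and at 24 h 1 (Atp5d) with block and GC correction and 1 without AIM2-/- mouse 2. Mouse as a block moved no other count of calls by over 1.5 times.

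With 1 library or mouse left out, counts ran from 55 to 66 (AIM2-/-, 6 to 24 h), 2 to 11 (AIM2-/-, 3 h), 53 to 62 (AIM2-/-, 6 h), 26 to 63 (AIM2-/-, 3 to 6 h), 63 to 69 (WT, 6 to 24 h), 2 to 14 (WT, 3 h), 41 to 59 (WT, 6 h) and 7 to 42 (WT, 3 to 6 h, 17 without the 3 h library of mouse 4 and 18 without the 6 h library of mouse 3). Between genotypes they ran from 0 to 4 at 0 h, 0 to 26 at 6 h and 0 to 11 at 24 h, and for the interaction at 24 h from 0 to 1.

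Leaving out WT mouse 1 together with the block or the correction was chosen after seeing the data. With the block it gave 24 calls in AIM2-/- at 3 h and 1 for the interaction at 6 h. With the GC correction it gave 7 calls in WT and 13 in AIM2-/- at 3 h, 38 in AIM2-/- from 3 to 6 h, and 6, 1, 5 and 3 between genotypes at 0, 3, 6 and 24 h. Signs then turned at 24 h in Ndufa6 (-0.23, AIM2-/-) and Uqcrh (-0.19 in WT, -0.05 in AIM2-/-), and between genotypes at 6 h in Ndufa2 (-0.02), Ndufa8 (-0.17), Ndufb9 (-0.13) and Cox6b1 (-0.13).

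Signs turned in members near 0. Ndufa6 in AIM2-/- at 24 h was -0.03 with RLE and with DESeq2, -0.01 without the filter, -0.23 with GC correction, -0.22 with block and GC correction, and from -0.09 to 0.13 with a library or mouse left out. Uqcrh was -0.13 and -0.12 in WT and -0.05 in AIM2-/- with these corrections, and from -0.03 to 0.16 in WT with a library or mouse left out. Cox6b2 in AIM2-/- ran from -0.15 to 0.75 with a library or mouse left out. At 6 h between genotypes, GC correction gave -0.05 for Ndufa8 and Ndufb9 and -0.01 for Cox6b1, and -0.02 for Ndufa8 with the number block.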
